A study of Mus musculus with 10 samples.

Results

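The cells described here were a small group in day 4 embryoid bodies (d4 EB), picked by the transcripts they carried. A cell was taken when it held at least 1 UMI, a counted transcript molecule, in 3 or more of *Lum*, *Smoc2*, *Wfikkn1*, *Adamts2*, *Itga4*, *Col6a3* and *Pla2g7*, and in fewer than 3 of *Tbx4*, *Pitx1*, *Wnt2*, *Gal*, *Gata5* and *Foxf1*. In all, 109 of the 3115 cells in the R1 table met this rule, out of 5897 cells in the series, and they had been proposed as a collagen-rich mesoderm. Of these, 107 were among 1416 wild-type (WT) cells and 2 were among 1699 *Mll3/4* dCD cells. R1 is a mouse embryonic stem cell line, and the dCD line was made from it by substitutions in both *Kmt2c* and *Kmt2d* that leave the MLL3 and MLL4 proteins in place without catalytic activity. Both lines went from 2i+LIF medium through 2 days as epiblast-like cells (EpiLC) to 4 days as embryoid bodies with BMP4, SCF, LIF and EGF, the protocol for primordial germ cell-like cells (PGCLC). Each genotype was 1 library of 1 line, so the genotype cannot be told apart from its line or its library, and differences between them were not tested. The intervals given are exact 95% intervals and cover counting error only.

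Mesoderm cells leave the epithelium of the early embryo and lay down a loose matrix of fibrillar collagens and glycoproteins, which integrins on the cell surface grip. Fibrillar collagen chains are secreted as precursors that are trimmed, cross-linked and later cut by proteases of the ADAMTS and MMP families. MLL3 and MLL4 are the enzymes that place monomethylation on histone H3 lysine 4 at enhancers, and they also act in part without that activity.

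The 7 genes that chose the cells include some for matrix proteins, an integrin and secreted enzymes, and their values are a description of the choice. Among the 107 WT members, *Adamts2*, a procollagen-trimming protease, had a UMI in 69 cells, and *Itga4*, the integrin chain that binds fibronectin and VCAM1, in 63.6% of cells. *Smoc2*, a matricellular protein, was detected in 58 of them, and *Lum*, a keratan sulfate proteoglycan of collagen fibrils, in 25 (23.4%). Levels as CPM (UMIs of a gene per 1e6 UMIs of the cells summed) were 108 for *Smoc2* in WT members against 5.65 in the other 1309 WT cells and 1.51 in the WT cells holding 3 or more of the *Tbx4* group. *Lum* was at 29.4, 2.16 and 0.43 CPM in the same order. The commonest pair was *Adamts2* with *Itga4*, in 42 cells. No WT member carried all 7 genes, and 61 of the 107 carried none of the 6 exclusion genes. The genes lie apart in the genome, for example *Lum* at chr10:97565128-97572703, *Smoc2* at chr17:14279506-14404790 and *Itga4* at chr2:79255426-79333123 on the plus strand, and *Col6a3* at chr1:90765923-90843971 on the minus strand (GRCm38 gene bodies, GENCODE).

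Cells just inside and just outside the threshold were alike in depth, and the members as a whole were like the cells just outside in most genes. In WT, 62 members held exactly 3 of the 7 genes, with a median of 13315 UMIs a cell, and 120 cells held exactly 2, with a median of 12478. WT members with 4 or more genes had a median of 15714 UMIs. Of 7320 genes with at least 50 UMIs, 17 (0.232%) were higher by 2-fold or more in the members than in the WT cells with exactly 2, and as many were lower. Among the 20 nearest neighbours by genes outside the rule, WT members were 22.5% on average for WT cells with exactly 2 and 36.8% for WT members. Whether the threshold follows an edge was not tested.

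The cells were much rarer in the dCD library. They made up 7.56% of WT cells (6.23–9.06%) and 0.118% of dCD cells (0.0143–0.425%), a ratio of shares of 64.2 (17.3–537) that rests on 2 dCD cells. With 2 or more of the 7 genes, 227 WT cells (16.0%) and 25 dCD cells (1.47%) were taken, a ratio of 10.9 (7.19–17.2). With 4 or more, 45 WT cells (3.18%, 2.33–4.23%) stood against 0 of 1699 dCD cells, with an exact upper limit of 0.217%. Set against 3 counts (0.177%), the WT share was 18-fold higher. All 7 genes were lower across the whole dCD library, from *Lum* (33.0-fold, 10.9–163) to *Pla2g7* (3.18-fold, 2.53–4.03), an enzyme that inactivates platelet-activating factor. As these genes chose the cells, their levels are no separate support for the shares. The 6 exclusion genes were lower in dCD too, from *Wnt2* (50.9-fold, 21.5–158) to *Pitx1* (14.8-fold, 12.8–17.2).

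The gap remained when depth was made equal. The dCD cells were shallower, with a median of 11751 UMIs against 13187.5 in WT. After every cell was thinned to 6831 UMIs, leaving out 50 shallower WT and 170 shallower dCD cells, 51 of 1366 WT cells (3.73%) and 0 of 1529 dCD cells met the rule. The exact upper limit of that dCD share was 0.241%, below the WT lower limit of 2.79%. Set against 3 counts (0.196%), the WT share was 19-fold higher. Thinned cells with 2 or more of the genes numbered 137 in WT (10.03%) and 8 in dCD (0.523%). Without cells called as doublets, which included 1 WT member, the shares were 7.53% and 0.118%.

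**Figure D1:**
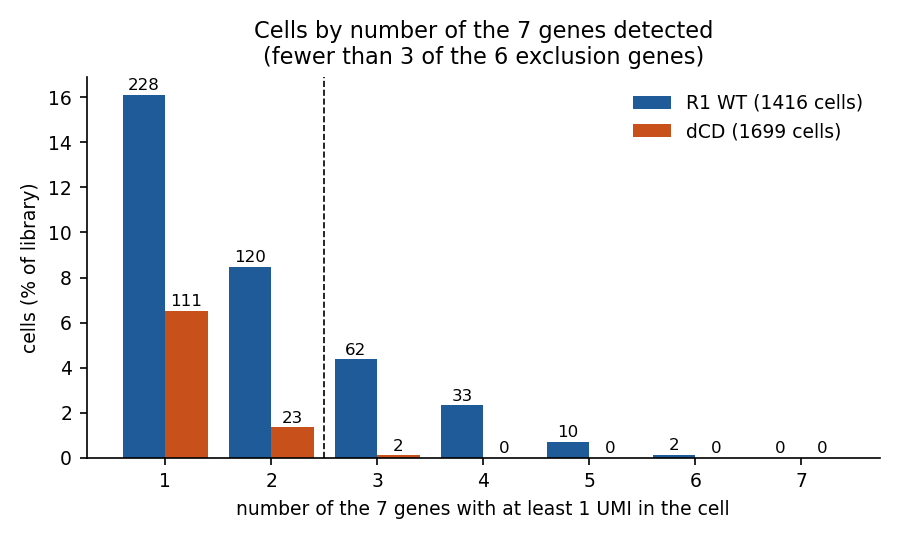
Bars give the share of each library's cells (y axis, percent) by the number of the 7 genes with at least 1 UMI (x axis), for cells with fewer than 3 exclusion genes. Numbers above the bars are cells, and the dashed line is the threshold, to the right of which lie 107 WT and 2 dCD cells.

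The cells that carried 3 or more of the 6 exclusion genes and fewer than 3 of the 7 genes numbered 342 in WT and 2 in dCD, and are named below by *Tbx4* and *Pitx1*. Only 2 WT cells met the 3-gene requirement and failed the exclusion limit, so the exclusion removed almost nothing. Without that limit 109 WT cells were taken. The E14Tg2a libraries of the series, made with another chemistry and deeper, are given side by side. There the rule was met by 2 of 368 d4 EB cells (0.543%, 0.0659–1.95%), 1 of 537 d2 EB cells and 0 cells of the 6 ESC, EpiLC and EpiSC libraries. In the same E14 d4 EB library 234 cells (63.6%) carried 3 or more of the exclusion genes. The *Tbx4* group was therefore common in both WT lines, and cells meeting the rule were few in E14.

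The part of the label that names collagen was borne out for some chains and not for others. Against all other WT cells, the WT members had 503 of 11430 genes (4.4%) higher by 2-fold or more and 752 (6.58%) lower by as much, counted on log2 of CPM plus 1 and without the 13 genes of the rule. Since the cells were chosen by expression, this and every contrast of members with other cells is a description with no test. Of 7 fibrillar collagen genes measured, 5 were higher by that measure and 0 lower, with a median log2 ratio of 1.26 against 0.01 for all genes. *Col3a1* was at 91.3 CPM (77.2–107) in members, 17.8 (16.0–19.8) in other WT cells and 24.2 in the *Tbx4* cells. *Col1a1*, the main fibrillar chain, was at 755 CPM against 316 in other WT cells and 511 in the *Tbx4* cells, which were 1.48-fold (1.38–1.59) below the members, and it was detected in 100 of the 107 members and in 328 of the 342 *Tbx4* cells. Its partner chain *Col1a2* went the other way, at 14.1 CPM in members, 24.8 in other WT cells and 66.2 in the *Tbx4* cells. *Col5a2*, which helps nucleate fibrils, was 3.29-fold higher (2.62–4.11) than in other WT cells. Against the *Tbx4* cells alone, 3 of 6 measured fibrillar collagens were higher and 1 lower, with summed levels of 1116 and 739 CPM. Among 12 other collagens, 3 were at least 2-fold higher and 0 lower, with *Col6a1* at 21.4 against 4.75 CPM.

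The higher matrix levels were broader than the collagens. Of 22 matrix glycoproteins, 9 were at least 2-fold higher and 0 lower, and their summed level was 3143 CPM in members against 1766 in other WT cells. *Fbln2*, an elastic fibre protein, was 4.73-fold higher (3.71–5.98), and *Nid1*, a basement membrane linker, was 3.13-fold higher (2.77–3.53). *Tnc*, a matrix protein of migrating and remodelling tissue, was at 31.9 against 7.39 CPM. *Postn*, a mesenchymal matrix protein, was at 20.8 against 4.01 CPM, from 13 of the 107 cells. Of 14 proteases and inhibitors 7 were higher and 1 lower. The higher ones included *Adamts12* (6.70-fold), *Adamts1* (5.07-fold) and the inhibitor *Timp1* (187 against 58.7 CPM). The lower one, the membrane protease *Mmp15*, rested on 2 UMIs (4.35-fold lower, 1.17–36.4). Of 10 integrins 3 were higher and 1 lower, led by *Itga8* at 12.3 against 2.06 CPM. In the group of collagen-processing enzymes 4 of 18 were higher and 0 lower, among them the cross-linking enzyme *Loxl2* (3.01-fold, 2.48–3.63). Of 8 proteoglycans only *Cspg4*, a pericyte proteoglycan, passed 2-fold (6.09-fold, 3.84–9.49).

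*Tgfbi*, an integrin-binding matrix protein induced by TGF-beta, was carried by every WT member and was higher in them than in either comparison group. It had a UMI in 107 of 107 WT members, with 1 UMI in the lowest cell, 17 in the median cell and 75 in the highest. Its level was 1334 CPM (1279–1391) in members, 231 (224–238) in other WT cells and 106 (96.9–116) in the *Tbx4* cells. The *Tbx4* cells overlapped the members in range, since 183 of 342 had at least 1 UMI, but their highest cell held 14. *Tgfbi* was not particular to the members. With the WT cells holding exactly 2 of the 7 genes added, it was in 222 of 227 cells, at 1085 CPM. *Bmp2*, a ligand of the BMP pathway, followed at 186 CPM (166–208) against 31.0 and 18.8. *Dkk2*, a secreted WNT modulator, was at 98.0 against 17.2 and 16.0 CPM. *Ramp1*, a coreceptor of the calcitonin receptor family, had the highest ratio to other WT cells (11.9-fold, 7.38–19.3), from 21 cells. Other genes near the top were *Gfra2* and *Ret*, chains of a receptor for GDNF family ligands (10.1-fold and 5.81-fold), and *Slc5a7*, the choline transporter (6.78-fold).

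**Figure D2:**
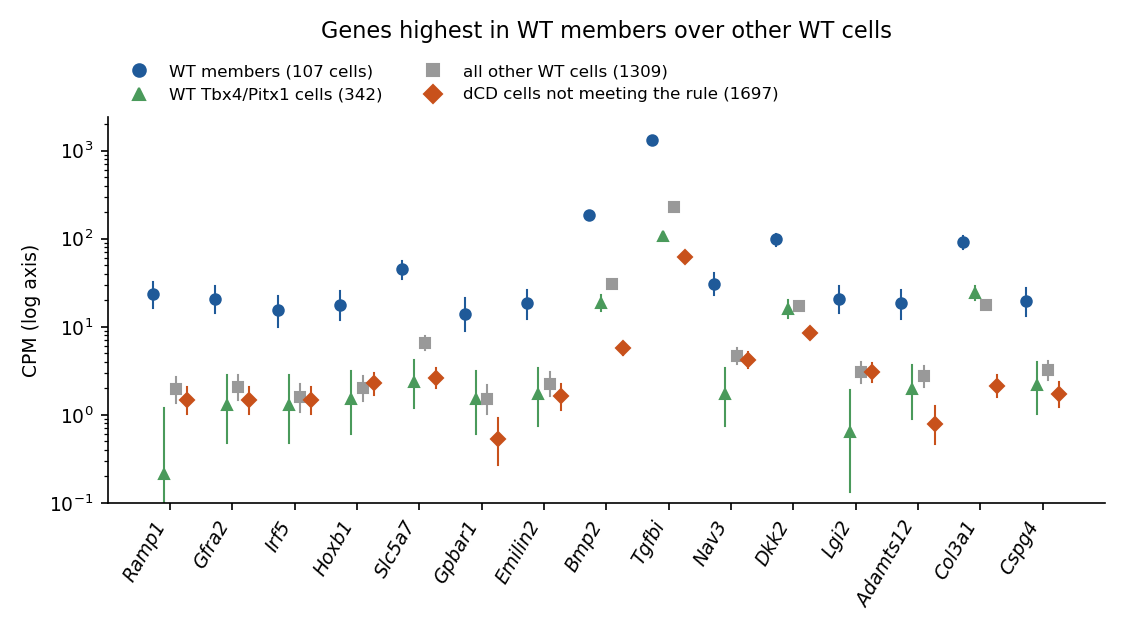
Levels (y axis, CPM, log axis) of the 15 genes outside the rule (x axis) with the highest ratio in WT members over other WT cells, in 4 groups of cells. Vertical lines are exact Poisson intervals. For each gene the WT members lie highest, with *Tgfbi* at 1334 CPM and *Bmp2* at 186 CPM.

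Few genes of the mesoderm list passed 2-fold in either direction. Of 21 lateral and extraembryonic mesoderm genes, 2 were at least 2-fold higher and 3 lower than in other WT cells. *Hand1*, a factor of lateral and extraembryonic mesoderm, was at 1208 CPM (1155–1263) and was found in 106 of 107 members, against 575 CPM and 1002 of the other 1309 WT cells. *Vim*, the mesenchymal intermediate filament, was at 1817 CPM in members, 879 in other WT cells and 767 in the *Tbx4* cells. *Gata4*, a heart and endoderm factor, was lower, at 7.35 CPM against 23.9 in other WT cells and 53.1 in the *Tbx4* cells. *Twist1*, a mesenchymal factor, was at 148, 230 and 596 CPM in the same order. *Phlda2*, an imprinted growth-restraining gene, was 4.43-fold lower (3.64–5.45) than in other WT cells and 13.3-fold lower (10.9–16.3) than in the *Tbx4* cells.

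The members and the *Tbx4* cells carried different Hox genes. Hox paralog groups are switched on in order along the body axis, low numbers in front and high numbers behind. Between these WT groups 519 of 8884 genes (5.84%) were 2-fold or more higher in the members and 296 (3.33%) were lower. Of 8 genes of paralogs 10 to 13, 8 were lower in the members and 0 higher. Of 12 genes of paralogs 5 to 9, 10 were lower and 0 higher. Of 3 genes of paralogs 1 to 4, 2 were higher and 0 lower. Genes were measured by their UMIs in both groups together, and the *Tbx4* cells gave 4637053 UMIs against 1632470 in the members. These counts thus favour genes high in the *Tbx4* cells. Summed over every gene of the list, measured or not, paralogs 10 to 13 were at 43.5 CPM in members against 442. Such sums were 130 against 468 CPM for paralogs 5 to 9 and 238 against 89.3 for paralogs 1 to 4. *Hoxb2* (chr11:96350525-96354012, plus strand) was at 152 CPM (134–172) in members and 29.8 (25–35.2) in the *Tbx4* cells. *Hoxb1*, its neighbour at chr11:96365752-96368256, was at 17.8 against 1.51 CPM, and *Hoxb4* at 38.6 against 11.4. *Hoxa9* was at 3.06 CPM against 86.5, and *Hoxa10* at 6.74 against 103. *Hoxc11* had 0 UMIs in the members and 32.8 CPM in the *Tbx4* cells, at least 17.8-fold lower when set against 3 counts.

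**Figure D3:**
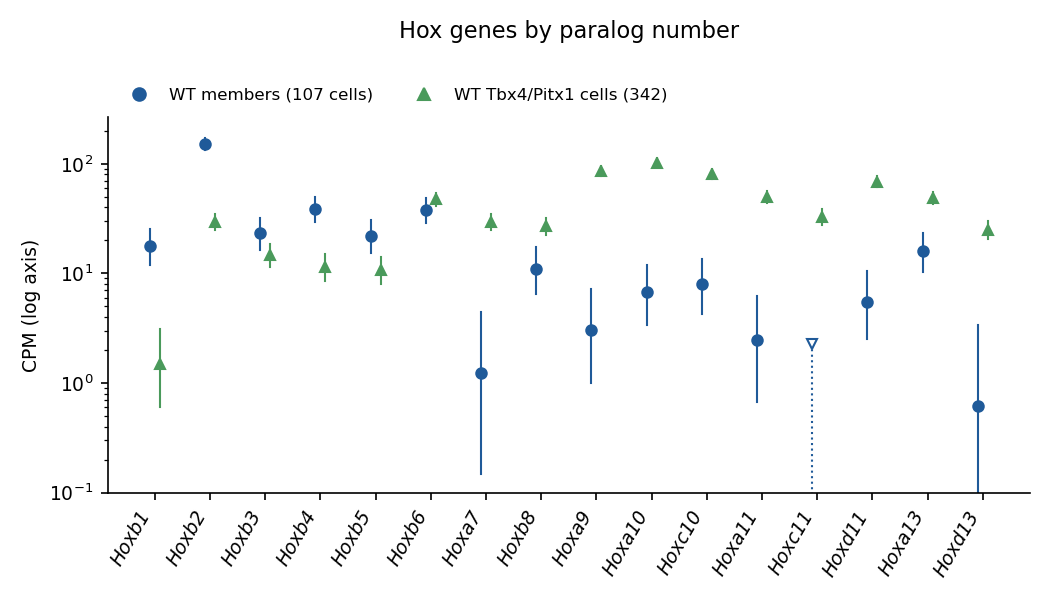
Levels (y axis, CPM, log axis) of Hox genes ordered by paralog number (x axis) in 107 WT members and 342 WT *Tbx4*/*Pitx1* cells. Lines are exact Poisson intervals and open triangles mark the upper limit of a gene with 0 UMIs. The order of the groups turns over along the axis, with members higher at *Hoxb1* and *Hoxb2* and the *Tbx4*/*Pitx1* cells higher from *Hoxa9* to *Hoxd13*.

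Signalling and growth genes differed from the *Tbx4* cells in both directions. *Sfrp1*, a secreted WNT antagonist, was 35.7-fold lower (18–82.9), at 4.90 against 175 CPM. *Gsn*, an actin-severing protein, was at 168 against 6.04 CPM, and it was found in 72 members and in 21 of the *Tbx4* cells. *Ccnd1*, the G1 cyclin, was at 493 against 55.2 CPM. The CDK inhibitors *Cdkn2b* and *Cdkn2a* were also higher, at 35.5 against 0.86 CPM and 53.3 against 4.53 CPM. *Ltbp1*, which stores latent TGF-beta in the matrix, was 6.71-fold higher (4.90–9.29), and *Igfbp4*, a carrier of insulin-like growth factors, was at 537 against 115 CPM. *Crabp1*, which binds retinoic acid, was at 297 against 32.8 CPM, and *Aldh1a3*, which makes it, at 15.3 against 0.86. Of 20 genes of G2 and mitosis, 0 were higher and 1 lower, with a median log2 ratio of −0.38.

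Some genes known from neurons, picked after their values were seen, were higher in the members, while most measured genes of the neural and endothelial marker lists were not. *Tubb3*, a tubulin of neurons, was at 231 CPM in members against 56.4 in other WT cells, and it was carried by 76 of the 107. *Gap43*, a growth cone protein, was at 146 against 68.2 CPM, and *Phox2a*, a factor of autonomic neurons, at 130 against 39.9. Within the neural and surface ectoderm list 1 of 6 measured genes was higher and 3 lower than in other WT cells, with 9 of 16 at 0 UMIs. The endothelium list had 1 of 11 higher and 7 lower, with summed levels of 115 and 149 CPM and 9 of 16 genes at 0. *Pecam1*, an adhesion molecule of endothelium that is also made by stem cells, was the higher one (45.3 against 21.1 CPM), while *Cdh5*, the endothelial cadherin, had 0 UMIs. In the blood list *Runx1* was at 159 against 57.3 CPM, 3 of 4 measured genes were lower, and 10 of 13 were at 0.

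Markers of the other cell types that an embryoid body holds were mostly low. Of 15 naive pluripotency genes 12 were at least 2-fold lower and 0 higher, with summed levels of 436 CPM in members and 1978 in other WT cells. *Pou5f1* was at 19.6 CPM in members, 20.9 in the *Tbx4* cells and 206 in other WT cells. Of 12 PGC genes 10 were lower, with sums of 349 and 706 CPM, and of 6 endoderm genes 6 were lower, with sums of 15.3 and 164 CPM and 12 of 17 at 0. *Epcam*, an epithelial adhesion protein, remained in 19 of the 107 members and was at 31.9 CPM, below other WT cells (97.4) and above the *Tbx4* cells (5.82). The share of UMIs from ribosomal protein genes was also lower, 17.3% in members against 21.5%. The part these markers and shares have in the levels above was not tested. *Vim*, *Hand1*, *Col1a1* and *Tgfbi* were high and these markers low, while *Twist1* and *Gata4* were below other WT cells. Of 20 lateral and extraembryonic mesoderm genes, 4 were at least 2-fold higher and 8 lower than in the *Tbx4* cells. Against other WT cells 2 of 21 were higher and 3 lower, so only some genes bore out the mesoderm label. *Lum*, in 23.4% of cells, and *Col1a2* did not mark the cells as a whole.

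The WT members lay near each other when cells were compared by genes the rule had not used. Of the 20 nearest neighbours of a WT member, 36.8% on average were WT members, which were 3.43% of all cells and 7.56% of WT cells. WT cells with exactly 2 of the 7 genes gave 28.1%. WT cells outside these groups and the *Tbx4* group gave 30.7%, and were 27.2% of all cells. Cells of the *Tbx4* group gave 3.6% of the neighbours, and dCD cells gave 0.794% against 54.5% of all cells. At least 1 member neighbour was found for 104 of the 107 members, and 5 or more for 80. A score from the 30 genes with the highest ratio outside the rule had a median of 24.1 UMIs per 10000 in WT members, ranging from 2.01 to 66.5. The median was 15.1 in WT cells with exactly 2, 1.64 in the *Tbx4* cells and 1.48 in the remaining WT cells. These genes were picked on the same cells, so the order of the WT groups follows from the choice. Among members it differed little between cells with exactly 3 of the rule's genes (23.5) and with 4 or more (24.8).

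**Figure D4:**
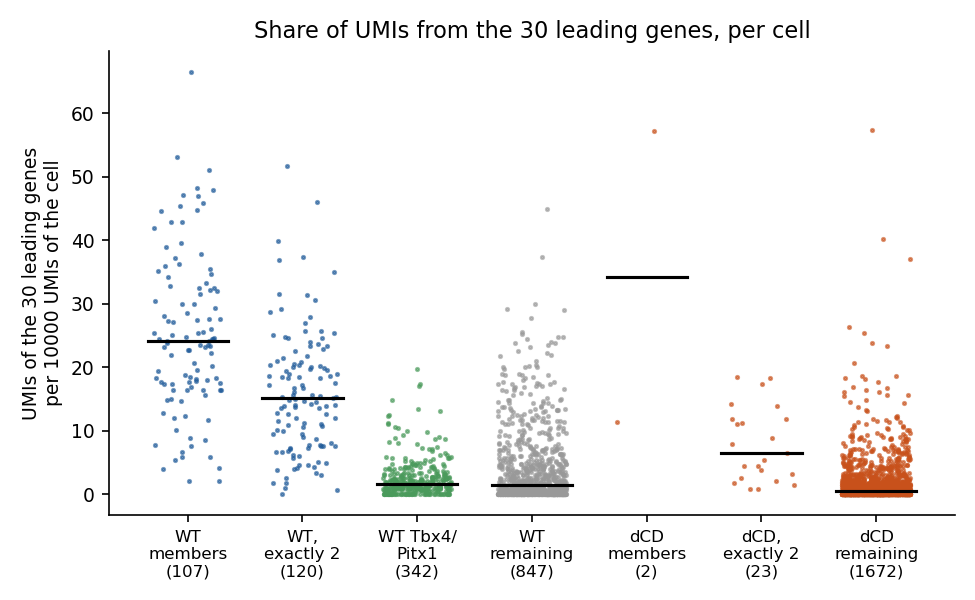
Each point is a cell, placed by its UMIs of the 30 leading genes per 10000 UMIs (y axis), in 7 groups by library and number of rule genes (x axis, cell numbers in brackets). Black bars are medians, at 24.1 in WT members, 15.1 in WT cells with exactly 2 and 6.54 in dCD cells with exactly 2.

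The 2 dCD members differed from each other as well as from the WT members. The first held 14954 UMIs in 4402 genes, with 1 UMI each of *Wfikkn1*, *Adamts2* and *Itga4*, so it met the rule by the smallest margin. It had 14 UMIs of *Col1a1*, 6 of *Tgfbi*, 8 of *Hand1* and 1 of *Bmp2*. The second held 21534 UMIs in 5143 genes, with 3 of *Smoc2*, 2 of *Itga4* and 5 of *Pla2g7*. It had 47 UMIs of *Tgfbi*, 32 of *Bmp2*, 100 of *Fn1*, 94 of *Sparc* and 145 of *Igf2*, and 0 of *Col1a1*. Neither had a UMI of *Col3a1*, *Pou5f1* or any exclusion gene, and neither was called a doublet. Of the 20 nearest neighbours of each, 9 were WT members. Their leading-gene scores were 11.4 and 57.1, one below and one above the WT median.

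Genome-wide values for 2 cells rest on 36488 UMIs, where 3 counts are 82.2 CPM. Of 5204 genes with at least 50 UMIs, dCD members had 614 (11.8%) higher and 1215 (23.3%) lower by 2-fold or more than WT members. Of the lower ones 726 had 0 UMIs in the dCD cells. After centring on the median log2 ratio of −0.18 the counts were 840 and 1084, and with the trimmed mean of M values they were 270 and 1759, so the balance of higher and lower depended on the scaling. For *Tgfbi* the 2 cells lay on either side of the WT level of 1334 CPM, at 401 CPM (6 UMIs) and 2183 CPM (47 UMIs). The same held for *Vim*, at 669 CPM (10 UMIs) and 2833 CPM (61 UMIs) around a WT level of 1817, so their pooled levels of 1453 and 1946 CPM describe neither cell. *Hand1* was at 493 against 1208 CPM, and *Col1a1* at 384 against 755, all from 1 cell. *Kmt2c* and *Kmt2d* gave 2 and 3 UMIs in the dCD members, with ratios of 1.32 (0.156–4.94) and 2.1 (0.421–6.41). The substitutions leave both transcripts in place, so these levels are no check on genotype.

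The genes furthest from WT in the 2 dCD cells came in part from 1 of them. *Tgm2*, a cross-linking transglutaminase, was at 1178 against 7.96 CPM, and *Thbs1*, a matrix thrombospondin, at 1370 against 22.1, each from the second cell alone. Pooled, *Cox4i2*, a respiratory chain subunit, was at 603 against 52.7 CPM, with 19 UMIs in the first cell and 3 in the second. *Sat1*, which breaks down polyamines, was at 1370 against 130 CPM, but the first cell held 2 UMIs (134 CPM, close to WT) and the second 48. *Timp2* was at 795 against 90.7 CPM, from 4 and 25 UMIs. *Igf2*, the paternally expressed growth factor, was at 4796 CPM (175 UMIs) against 1371, while it was at 84.3 CPM in the other dCD cells. *H19*, the maternally expressed RNA beside it, had 0 UMIs in the dCD members and 830 CPM in WT members, at least 10.1-fold lower set against 3 counts. Only 38 of the 107 WT members (35.5%) had a UMI of *H19*, so most single WT members were at 0 too. *Ccnd1* (at least 5.99-fold lower), *Odc1*, the enzyme that starts polyamine synthesis (at least 3.43-fold), the mesoderm factor *Msx1* (at least 3.28-fold) and *Igf2r*, which clears IGF2 (at least 3.05-fold), were also at 0. With no dCD level taken below 3 counts, 119 genes were at least 2-fold lower.

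Genes high in the WT members and in the pooled dCD members were listed together, so being high in both follows from the choice. By the smaller of the log2 ratios to other cells in the 2 libraries, the leading genes were *Slc5a7* (2.59), *Bmp2* (2.55), *Tgfbi* (2.53) and *Nav3* (2.47). *Bmp2* was at 904 CPM in dCD members against 5.69 in other dCD cells, from 33 UMIs of which 32 were in the second cell. *Slc5a7* was at 384 CPM from that cell alone.

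Because 2 cells allow little, the genotypes were also set side by side in the cells with 2 or more of the 7 genes, a comparison chosen after the data had been seen. It held 25 dCD and 227 WT cells, and the dCD cells were a mixed set. *Tgfbi* was found in 23 of the 25 and *Hand1* in 19, against 222 and 224 of the 227 WT cells. *Epcam* was found in 14 of the 25 and *Pou5f1* in 7, against 34 and 24 in WT. Of their neighbours, those of the dCD cells with exactly 2 genes were 70.2% dCD cells and 5.22% WT members. Of the 23 dCD cells with exactly 2, 19 carried *Pla2g7*, against 42 of the 120 WT cells with exactly 2. In addition, 3 dCD cells with over 50000 UMIs gave 32.2% of the set's UMIs, and no WT cell of the set was as deep. The part that cell mixture and depth have in the differences was not tested.

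Of 7768 genes, the dCD cells of that looser set had 240 (3.09%) higher and 411 (5.29%) lower by 2-fold or more. In the cells outside it, 861 of 12955 genes (6.65%) were higher and 489 (3.77%) lower in dCD. *Tgfbi* was at 350 CPM (302–403) against 1085 in WT, and outside the set at 56.9 against 172. *Hand1* was at 477 against 1162 CPM, and outside at 158 against 524. *Col1a1* was at 248 against 719 CPM, 2.89-fold lower (2.43–3.47), and outside it was 12.4-fold lower (11.3–13.7). Of 6 fibrillar collagens 1 was higher and 2 lower, with a summed level of 550 against 1009 CPM, and *Col1a2* was the higher one (31.3 against 15.2 CPM). Outside the set 4 of 7 were lower and 0 higher, at 80.9 against 421 CPM. *Fn1* and *Sparc*, both matrix glycoproteins, were at 1054 against 709 and 1573 against 1108 CPM.

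Among the genes at the lower end were *Phox2a*, Hox genes and imprinted genes. *Phox2a* (chr7:101818313-101822726, plus strand) was found in 120 of the 227 WT cells and in 0 of the 25 dCD cells, where it was at least 23.8-fold lower than the WT level of 131 CPM. Outside the set it was at 31.0 CPM in WT and 8.73 in dCD. *Hoxb2* was at 16.6 against 144 CPM, 8.67-fold lower (4.53–19.1), and outside the set it was 1.84-fold lower (1.61–2.1). Of its UMIs in the 25 dCD cells 77.8% came from 1 cell, without which it was at 3.93 CPM. Of 3 Hox genes of paralogs 1 to 4, 3 were lower, against 2 of 7 outside. A gene was measured by its UMIs in both genotypes together, and WT gave 3293540 UMIs of the set against 543542 in dCD. The filter thus favoured genes high in WT, and the counts in and outside the set cover different genes. Summed over all 12 genes of the list, levels were 33.1 against 220 CPM in the set and 36.9 against 66.3 outside. Of 19 lateral mesoderm genes 8 were lower and 0 higher (median log2 ratio −0.84), against 15 of 21 lower and 0 higher outside (median −1.66). *Cdkn1c* (chr7:143458339-143461050, minus strand), an imprinted CDK inhibitor, had 3 UMIs in the dCD cells, 5.52 against 352 CPM, a ratio of 63.8 (21.8–310), and outside it was at 10.8 against 333. *Dlk1*, an imprinted Notch-related ligand, was at 12.9 against 165 CPM, and *Igf2r* at 23.9 against 210. Without the dCD cell richest in each, *Cdkn1c* was at 1.92, *Dlk1* at 7.53 and *Igf2r* at 15.0 CPM, a check added after the data had been seen. Of 26 IGF and imprinted genes 6 were lower and 2 higher, against 17 of 30 lower and 1 higher outside. *Igf2* was at 894 against 1281 CPM in the set and at 72.3 against 637 outside. *H19* was at 123 against 738 CPM, from 3 of the dCD cells, of which 1 gave 88.1% of its UMIs, and without that cell it was at 15.0 CPM.

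Genes of glycolysis, epithelium and pluripotency were among those at the higher end. Of 20 glycolysis and hypoxia genes 15 were at least 2-fold higher and 0 lower in the dCD cells, with a median log2 ratio of 1.37 and a summed level of 10498 against 4183 CPM. After thinning, with 8 dCD cells and 12 of the genes measured, the median was 0.68. In the cells outside the set 15 of 24 were higher and 0 lower, with a median of 1.27. *Bnip3*, a mitophagy receptor induced by low oxygen, was at 82.8 against 6.98 CPM, and outside at 90.5 against 9.25. *Pgk1*, a glycolytic kinase, was at 624 against 201 CPM, and outside at 678 against 210. *Slc2a3*, a glucose transporter, was at 613 against 95.3 CPM. *Trap1a*, an X-linked gene of early embryos and tumours, had the highest ratio, at 86.5 against 1.21 CPM (4 UMIs in WT), and *Rhox5*, an X-linked homeobox gene, was at 121 against 8.81. *Igfbp2* was at 535 against 78.6 CPM, and outside at 420 against 132. *Cdh1* (58.9 against 6.38 CPM), *Epcam* (167 against 29.8), and *Krt18* (1089 against 248) were higher as well. Most of these genes were about as common, or more common, in the dCD cells outside the set. *Trap1a* was found in 9 of the 25 dCD cells and in 1005 of the 1674 outside, and *Epcam* in 14 and 1213. *Rhox5* was found in 8 and 520, and *Cdh1* in 8 and 654. *Krt18* went the other way, in 19 of the 25 and 800 of the 1674. The pluripotency gene *Zfp42* was at 57.0 against 9.72 CPM, from 4 of the 25 dCD cells, of which 1 gave 71.0% of its UMIs, and without that cell it was at 17.8 CPM. Of 10 naive pluripotency genes measured 7 were higher and 0 lower, against 3 of 15 higher and 0 lower outside, so the counts cover different genes. Summed over all 15, levels were 1005 against 471 CPM in the set and 4226 against 2119 outside. The dCD cells of the set were thus below the dCD cells outside it.

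**Figure D5:**
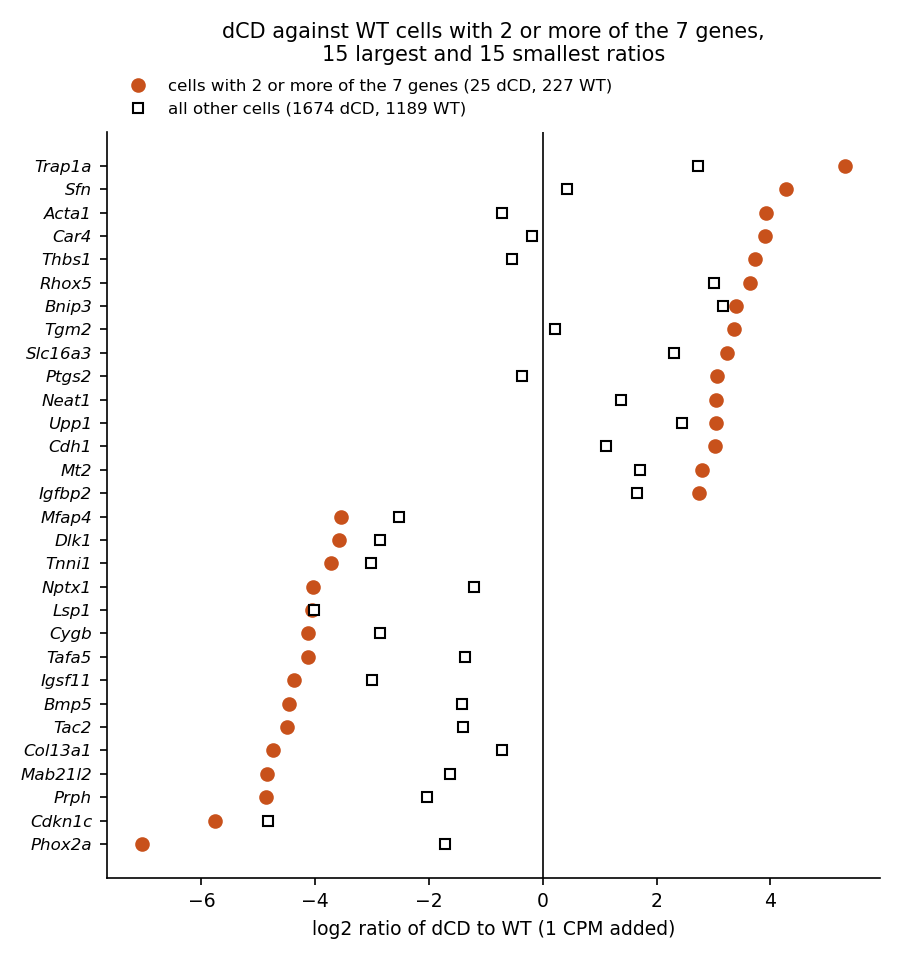
Log2 ratio of dCD to WT levels with 1 CPM added (x axis) for the 15 genes with the highest and the 15 with the lowest ratio (y axis) in cells with 2 or more of the 7 genes. Filled circles are those cells (25 dCD, 227 WT) and open squares are all other cells (1674 dCD, 1189 WT). A gene with 0 UMIs in dCD, such as *Phox2a*, is drawn at its fitted value, which is no bound.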

How the data were processed

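Single-cell RNA-seq of R1 WT and *Mll3/4* dCD d4 EB (10x 3' v3) and of 8 E14Tg2a libraries (v2) was used. The authors deposited UMI counts per gene and cell, mapped to mm10, and limited the R1 table to cells with at least 2000 expressed genes (lowest found, 2006). The R1 counting tool and annotation are not given in the sources used here. The R1 counts carry no normalization, whereas per the study's methods the E14 libraries were aggregated with Cell Ranger, which by default evens their mapped reads. The R1 table held 20586629 UMIs in WT and 22887974 in dCD, with 0 barcodes shared.

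The cells, gene lists and tests were chosen with earlier results of these data known. UMIs were summed over cells, expressed as CPM, and compared as log2 ratios with 1 CPM added for genes with at least 50 UMIs. The 13 rule genes were left out, and a 2-fold difference was the size rule. With 1 library per group no p-value was computed. Intervals were exact Poisson (levels), conditional binomial (ratios) or Clopper-Pearson (shares). A level of 0 was set against 3 counts.

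Genes named were those of the rule, *Kmt2c* and *Kmt2d*, the 15 highest and 15 lowest dCD to WT ratios, the 15 with the highest smaller ratio in both libraries, and up to 4 by ratio and 3 by UMIs from each list. The contrasts of WT members with other WT cells and with the *Tbx4* cells, the looser set, and the genes named from them or for one cell, were added after values were seen. Doublets were called with Scrublet in scanpy 1.11.5 and kept. Cells were thinned with a fixed seed to 6831 UMIs, percentile 10 of the shallower library. Neighbours came from 20 components of 2000 variable genes without the rule genes. TMM factors came from edgeR 4.0.16. The ratio script was tested on simulated data. Alternatives were other minimum UMIs, folds, scalings, thinning, doublets and thresholds of the rule.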

Additional observations from a re-analysis of the deposited data

How the results depend on the processing

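No paired analysis was possible because each group is 1 library. The shares moved with depth and threshold, always with WT above dCD: 3.73% and 0% after thinning, 16.0% and 1.47% with 2 or more genes, and 3.18% and 0% with 4 or more. For the 2 dCD members, 614 higher and 1215 lower genes became 1991 and 6722 with a minimum of 1 UMI, 1631 and 3880 with 10, and 90 and 190 with 200. The higher count was 1223 at 1.5-fold, 187 at 3-fold and 270 with the trimmed mean of M values, and with 2 or more of the genes the counts were 240 and 411. In that looser set the counts became 1764 and 1715 with 1 UMI, 741 and 1036 with 10, 51 and 90 with 200, 743 and 1033 at 1.5-fold, 82 and 141 at 3-fold, and 190 and 424 of 3406 genes after thinning. The alternatives count more or fewer genes, cells or UMIs, or change the fold or the scaling, and what moved the counts was not tested. Medians of the gene lists stayed within the spread of their own genes in 49 of 51 checks for members and 79 of 84 for the looser set, and none with a median past 2-fold changed direction. For the 2 dCD members, gene ratios with thinning or with 4 or more genes were not run, since 0 dCD cells were left. With 3 counts at 82.2 CPM in the dCD members, a gene below that level in WT could not be shown to be lower.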

Other observations

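A few dCD cells outside the chosen sets carried the leading genes of the WT members. Of the 1674 dCD cells outside the looser set, 5 (0.299%) had a leading-gene score at or above the WT member median of 24.1, up to 57.3 UMIs per 10000. Of the 1189 WT cells outside that set, 11 (0.925%) did. These WT cells include some with 2 or more of the 7 genes and 3 or more exclusion genes. At least 1 WT member was among the 20 nearest neighbours of 34 of the 1674 dCD cells, and 5 or more were for 2 of them.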
